A study of Mus musculus with 2 samples.

Results

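The 8 Ly49 receptor genes examined here, Klra1, Klra2, Klra3, Klra4, Klra6, Klra7, Klra8 and Klra9, were taken by symbol from the 32285 genes that both libraries list. CD45-positive leukocytes were flow-sorted from tumors of B16-F10, a transplantable mouse melanoma line, in wild-type mice. The Control mice were given vehicle, and the DOPAC mice 3,4-dihydroxyphenylacetic acid, which forms when dopamine is degraded. The design names 4 mice per group, but their cells were pooled into 1 library per group and cannot be traced to a mouse. No difference between libraries therefore has a replicate check, no test was run, and each interval given is a 95% interval that covers counting error only. For summed counts and their ratios it treats each counted molecule as independent, and leaves out the spread between cells of a library. Dose, route, strain and age are not given in the sources used here.

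Ly49 receptors are surface lectins of natural killer (NK) cells, encoded side by side in the NK gene complex, that read major histocompatibility complex class I molecules on other cells. Inhibitory members carry a tyrosine in an inhibitory motif near the start of the protein and recruit phosphatases. Activating members lack this tyrosine and signal through the adaptor DAP12, encoded by Tyrobp. Each NK cell transcribes only some of the genes, so that the receptors are spread over the NK pool in overlapping combinations. Some memory-like, regulatory CD8 and innate-like T cells also carry Ly49 receptors, and Klra2 (Ly49B) is known from myeloid cells.

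All 8 genes lie on the minus strand of chromosome 6 in GRCm38. Klra6 starts the group at chr6:130013033-130026954, followed by Klra4 at chr6:130043731-130067271, Klra8 at chr6:130115226-130129898, Klra9 at chr6:130178675-130193112, Klra7 at chr6:130218605-130233322, Klra3 at chr6:130323289-130337574 and Klra1 at chr6:130363917-130386874. Klra2 stands apart at chr6:131219223-131247362. The first 48 coding bases of each gene are shown because they hold the codon that separates the kinds of receptor, codon 8, in capitals. Klra4 (Ly49D) and Klra8 (Ly49H), the activating members, have a phenylalanine codon there, and the other 6 have a tyrosine codon, TAT or TAC.
Klra4: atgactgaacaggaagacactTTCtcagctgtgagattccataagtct
Klra8: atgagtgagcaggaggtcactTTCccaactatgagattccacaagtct
Klra1: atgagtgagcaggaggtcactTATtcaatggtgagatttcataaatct
Klra2: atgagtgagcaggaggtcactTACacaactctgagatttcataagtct
Klra3: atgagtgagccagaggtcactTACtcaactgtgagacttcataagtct
Klra6: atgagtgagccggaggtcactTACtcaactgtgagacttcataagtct
Klra7: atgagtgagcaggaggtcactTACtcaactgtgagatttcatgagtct
Klra9: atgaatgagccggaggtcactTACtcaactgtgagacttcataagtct
Klra3 and Klra9 shared 95.9% of aligned coding bases, and Klra2 shared 73.3% to 76.7% with the other members. Counting of near-identical genes can split or lose reads, so the last 500 transcript bases were compared in windows of 90 bases. Windows also found in another Ly49 gene made up 8.52% for Klra3, 10.2% for Klra7, 14.1% for Klra9 and 0% for the other 5 members. Values of Klra3, Klra7 and Klra9 are less certain for this reason, and UMI numbers of different genes were not corrected for transcript length.

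After filters and doublet removal 8105 Control and 9280 DOPAC cells were kept. The Control library was deeper, with a median of 9320 UMIs (unique molecular identifiers, each marking 1 captured transcript) per cell against 3592 in DOPAC. The libraries shared 32 cell barcodes, 0.332% of Control and 0.297% of DOPAC barcodes. Cells were gated by marker UMIs. NK cells had at least 2 UMIs of Ncr1 plus Klrb1c and 0 of Cd3, myeloid and B-cell markers, T cells at least 2 Cd3 UMIs, and macrophages Csf1r plus Adgre1 with C1q UMIs. This gave 525 Control and 220 DOPAC NK cells with medians of 5886 and 2959 UMIs. In them Klrd1, the CD94 chain of NK receptors that the gate did not use, stood at 439 and 438 CPM (counts per 1000000 UMIs of the class). Haemoglobin Hbb-bs was at 17.9 CPM in Control and at 0 in DOPAC NK cells.

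Ly49 RNA was found in most NK cells of both libraries, and the family was carried mainly by 5 genes. At least 1 UMI of any member was seen in 87.6% of Control NK cells (84.5 to 90.3, n = 525 cells) and in 85.0% of DOPAC NK cells (79.6 to 89.4, n = 220 cells). With each cell thinned to 1000 UMIs the shares were 69.0% and 64.7%. The 8 genes summed to 1745 CPM in Control NK cells and 1475 in DOPAC NK cells. As a reference for free RNA, 6.81% of 558 Control B cells had a member UMI at a median depth of 4274 UMIs, and 1.44% after thinning. The NK shares lay far above that Control level in both libraries. The 20 DOPAC B cells held 0 member UMIs and were too few to give a DOPAC level.

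Among the activating members, Klra4 gave 586 CPM in Control NK cells (560 to 612) and 454 in DOPAC NK cells (409 to 502). It was detected in 47.0% and 41.8% of these cells. Klra8, whose product recognises a mouse cytomegalovirus protein, gave 556 CPM (531 to 582) and 385 (344 to 430), in 55.2% and 42.3% of cells. For each gene the intervals of the libraries did not overlap, and the Control library was the higher. The gated NK cells held 47.2% of all Klra4 UMIs and 45.3% of all Klra8 UMIs in Control, but 14.9% and 12.2% in DOPAC. Cells outside the gated classes held 45.2% and 46.3% in Control and 73.1% and 74.4% in DOPAC. Their part in the difference was not tested. In both libraries these genes were highest in NK cells with Itga2 RNA, followed by NK cells without it, and the highest value in the other main gates was 41.1 CPM for Klra4 and 47.7 for Klra8.

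Klra7 (Ly49G) was the inhibitory member with the most UMIs in NK cells, at 268 CPM in Control (250 to 286) and 318 in DOPAC (281 to 359). Klra9 (Ly49I) gave 159 and 155 CPM, and Klra3 (Ly49C) gave 118 and 125. Ly49C and Ly49I bind class I of the b haplotype. For Klra9 and Klra3 the intervals of the libraries overlapped. Klra1 (Ly49A) gave 50.9 CPM in Control (43.6 to 59.1) and 34.0 in DOPAC (22.6 to 49.1), with 12.4% and 7.73% of NK cells positive. Klra6 (Ly49F) was rare in NK cells at 5.95 and 3.64 CPM, the latter from 3 UMIs. Klra2 gave 7 UMIs in Control NK cells (2.08 CPM) and 0 in DOPAC NK cells, where the floor of 3 counts allows up to 3.64 CPM.

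**Figure D1:**
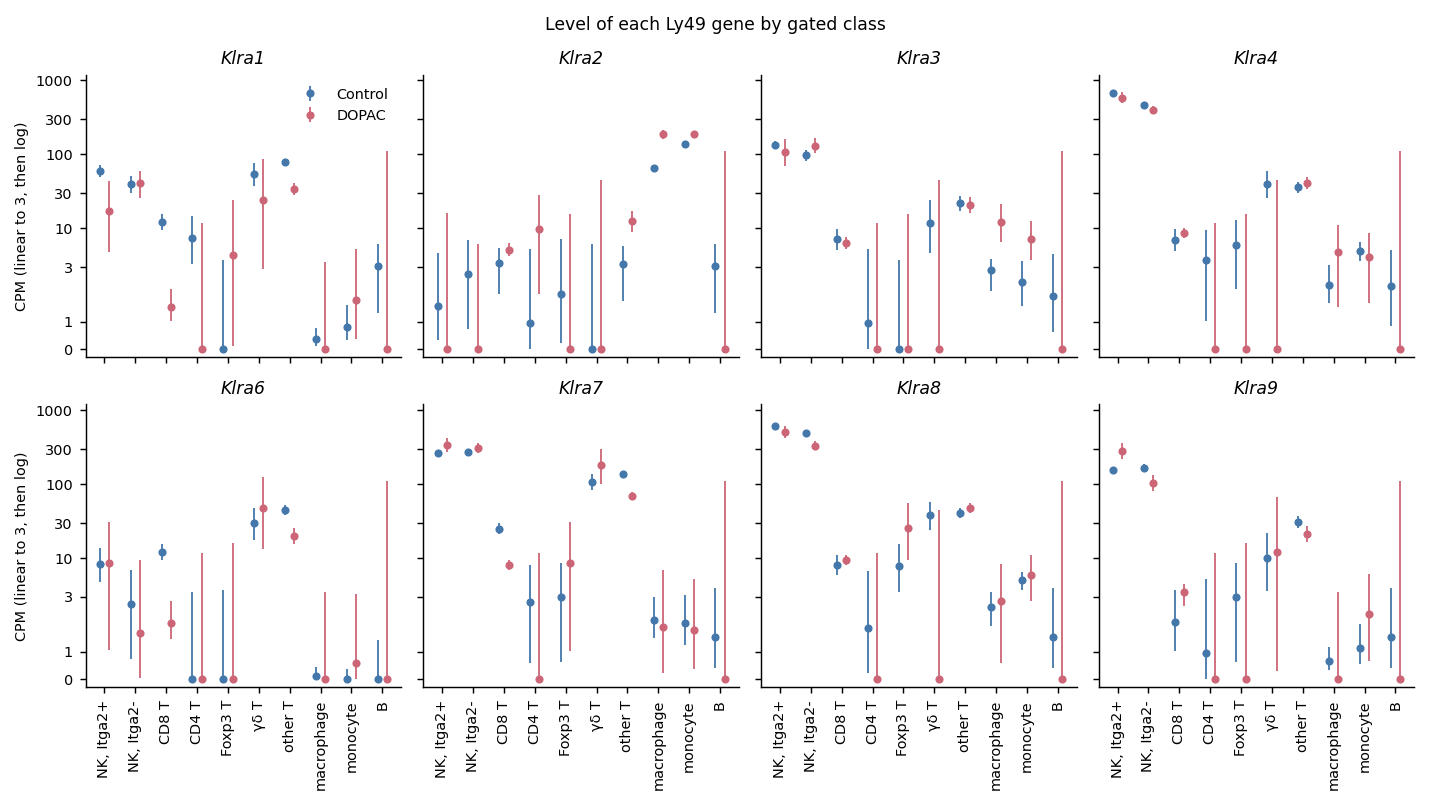
CPM of each Ly49 gene (y axis, linear up to 3 and logarithmic above) in the gated classes of the Control and DOPAC libraries. Points are sums over the cells of a class and bars are exact Poisson 95% intervals. Klra3, Klra4, Klra7, Klra8 and Klra9 stand highest in the NK classes, Klra2 in macrophages and monocytes, and Klra6 in the T classes.

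The members did not share 1 order of classes. Klra3, Klra4, Klra7, Klra8 and Klra9 were highest in an NK class in both libraries. Klra6 was instead highest in T cells: 44.9 CPM in Control T cells outside the CD8, CD4, Foxp3 and gamma delta gates (38.5 to 52.1), next to 30 in gamma delta T cells (17.8 to 47.4), whose intervals overlap. In DOPAC gamma delta T cells it gave 48.5 CPM from 4 UMIs (13.2 to 124), against 20.1 in the other T cells (15.5 to 25.6). Klra1 was highest in those other T cells in Control, at 78.3 CPM (69.7 to 87.6), with an interval that overlaps that of NK cells with Itga2 RNA (59.4, 48.9 to 71.4). In DOPAC it was 40.5 in NK cells without Itga2 RNA (25.9 to 60.2) and 34.2 in the other T cells (28.1 to 41.2), again overlapping.

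The first comparison within NK cells was between those with and without a UMI of Itga2, the integrin chain of the DX5 antigen found on circulating NK cells. There were 293 with and 232 without in Control, at medians of 6040 and 5706 UMIs, and 65 with and 155 without in DOPAC, at 2946 and 2993. The 8 genes summed to 1903 CPM with Itga2 RNA and 1539 without it in Control, a log2 ratio of 0.31 (0.23 to 0.38). In DOPAC the values were 1861 and 1324, a log2 ratio of 0.49 (0.32 to 0.66). The direction was the same in both libraries. With the NK gate lowered to 1 marker UMI the Control ratio was 0.73 (0.66 to 0.80).

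Both activating genes were higher in NK cells with Itga2 RNA in each library. Klra4 gave 676 against 468 CPM in Control and 584 against 403 in DOPAC, log2 ratios of 0.53 and 0.54. For Klra8 the pairs were 605 against 492 and 515 against 334, log2 ratios of 0.30 and 0.63. The Control ratio of Klra8 was 0.16 (0.00 to 0.33) with at least 3 NK marker UMIs and 0.23 (-0.10 to 0.57) at 1000 UMIs per cell. Klra7 had log2 ratios of -0.03 (-0.23 to 0.16) and 0.16 (-0.25 to 0.54), and with the gate lowered to 1 NK marker UMI its Control ratio was 0.52 (0.35 to 0.70).

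The ratios of Klra9, Klra1 and Klra3 differed in sign between the libraries with the gate of 2 NK marker UMIs. Klra6, with 3 UMIs in DOPAC NK cells, and Klra2, with 0, were left aside. Klra9 was at 154 and 166 CPM with and without Itga2 RNA in Control, a log2 ratio of -0.11 (-0.36 to 0.14), and at 286 and 105 in DOPAC, a log2 ratio of 1.45 (0.93 to 1.97). The DOPAC value for Klra9 rests on 66 and 62 UMIs, and with at least 3 NK marker UMIs required it was 0.67 with an interval from -0.22 to 1.45. With 1 NK marker UMI the ratios of Klra9 were 0.47 (0.25 to 0.70) in Control and 1.30 (0.91 to 1.69) in DOPAC, and so of the same sign. Klra1 had a log2 ratio of 0.56 (0.11 to 1.06) in Control and -0.96 in DOPAC, the latter from 4 against 24 UMIs with an interval that spans 0. For Klra3 the ratios were 0.45 (0.15 to 0.76) and -0.24 (-0.99 to 0.38), the latter at 0.25 (-0.21 to 0.66) with 1 NK marker UMI. The difference between the libraries in these ratios was not tested.

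A gene was counted as higher or lower when its 2 sums together held at least 20 UMIs and differed at least 1.5-fold. In Control 1 of 7 members counted as higher in NK cells with Itga2 RNA and 0 as lower, against 5.95% higher and 5.6% lower of all genes. This member was Klra6, from 16 and 4 UMIs, with a log2 ratio of 1.38 whose interval spans 0 (-0.02 to 3.65). In DOPAC 2 of 6 members were higher and 1 lower, against 12.3% and 11% of all genes. The members' median log2 ratios were 0.45 and 0.35, and those of all genes were 0.00 and 0.02. Genes of tissue-resident NK cells and type 1 innate lymphoid cells had medians of -0.50 and -0.40 in the same contrasts, with 3 of 9 and 3 of 6 lower and 1 and 0 higher.

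**Figure D2:**
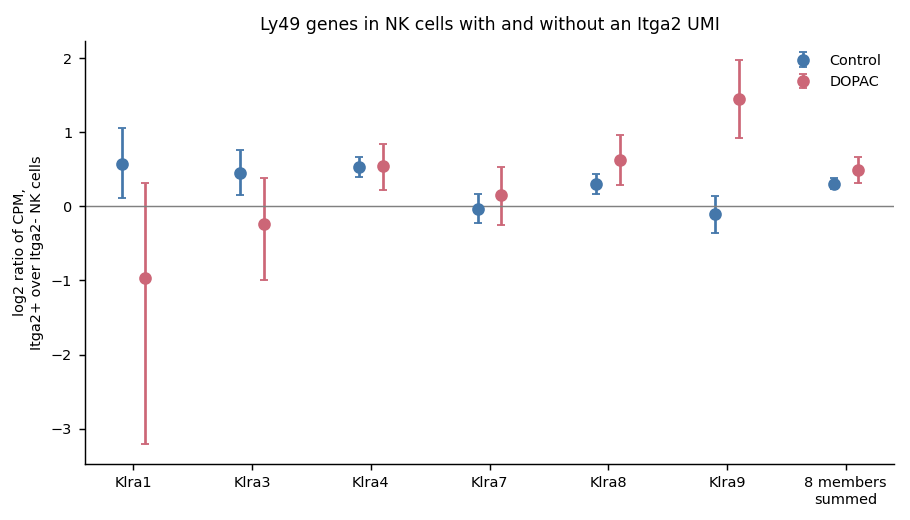
Log2 ratio of CPM in NK cells with over without an Itga2 UMI (y axis) for the 6 Ly49 genes counted in both libraries and for all 8 summed. Bars are exact 95% intervals for counting error. Klra4 and Klra8 lie above 0 in both libraries, and Klra9 lies at -0.11 in Control and at 1.45 in DOPAC.

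Most NK cells held RNA of more than 1 Ly49 gene. Control NK cells had 2.28 members detected on average and DOPAC NK cells 1.88, and 72.2% and 60.0% of cells had at least 2. At 1000 UMIs per cell the means were 1.18 and 0.995 and the shares with at least 2 members were 35.2% and 25.7%. In Control 3 members was the most frequent number (29.3% of cells), and in DOPAC 2 members (30%).

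Activating and inhibitory genes were often seen in the same cell. Of Control NK cells 61.7% held UMIs of both kinds (57.4 to 65.9), 17.0% of inhibitory members only and 8.95% of activating members only. In DOPAC these shares were 46.4% (39.6 to 53.2), 23.6% and 15.0%. The shares were not thinned, and the NK cells had medians of 5886 UMIs in Control and 2959 in DOPAC. DOPAC NK cells with both kinds had a median of 3306 UMIs, against 2730 with inhibitory and 2658 with activating members only. In Control these medians were 5804, 6085 and 5289. Activating genes gave 65.4% of all member UMIs in Control NK cells (64.2 to 66.6) and 56.9% in DOPAC NK cells (54.0 to 59.7).

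**Figure D3:**
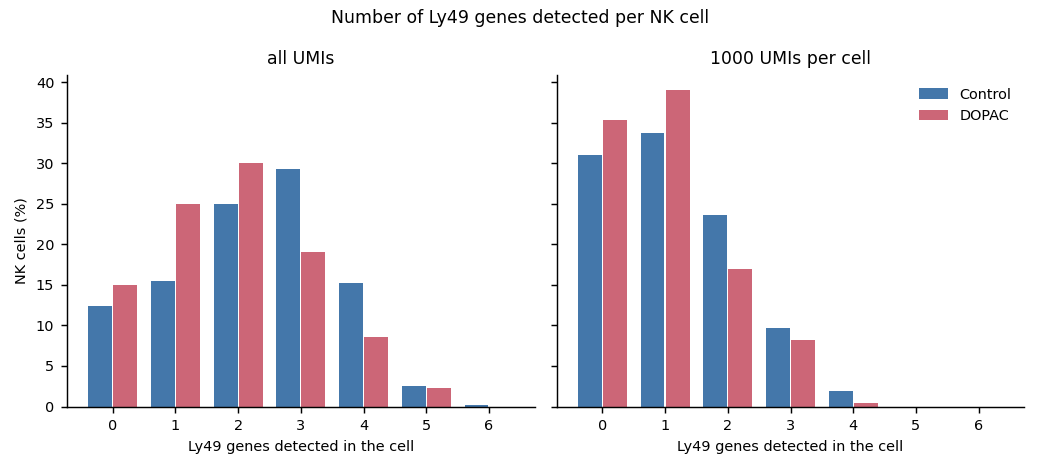
Share of NK cells (y axis, %) by the number of Ly49 genes detected (x axis), with all UMIs and with each cell thinned to 1000 UMIs, for Control and DOPAC. With all UMIs the Control distribution peaks at 3 genes (29.3%) and the DOPAC distribution at 2 genes (30%), and after thinning both peak at 1 gene.

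Pairs of genes were described by an odds ratio taken within 4 bins of cell depth, above 1 where a gene was found more often in cells with the other gene than in cells without it. In NK cells 15 pairs could be described in both libraries, of which 10 were above 1 in both and 3 below 1 in both, with medians of 1.30 in Control and 1.24 in DOPAC. The activating pair Klra4 and Klra8 had 2.50 in Control and 2.25 in DOPAC. Without depth bins their odds ratios were 2.545 (1.78 to 3.63) and 2.353 (1.36 to 4.08). Klra8 was found in 67.2% of Control NK cells with Klra4 and in 44.6% without it, and in 54.3% and 33.6% of DOPAC NK cells. At 1000 UMIs per cell the binned ratio was 1.98 in Control and 0.95 in DOPAC, so that the DOPAC ratio did not keep its direction. The intervals at this depth, again without bins, were 1.37 to 2.91 and 0.49 to 1.98. Klra1 and Klra4 had 2.02 and 2.72.

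The pairs below 1 in both libraries were Klra1 with Klra9 (0.59 and 0.61), Klra4 with Klra9 (0.88 and 0.81) and Klra3 with Klra7 (0.88 and 0.95). Klra1 and Klra3 had an odds ratio of 0.34 in Control (9 cells with both) and 1.66 in DOPAC (6 cells with both). Over the 15 pairs the odds ratios ran from 0.34 to 2.50 in Control and from 0.61 to 2.87 in DOPAC.

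**Figure D4:**
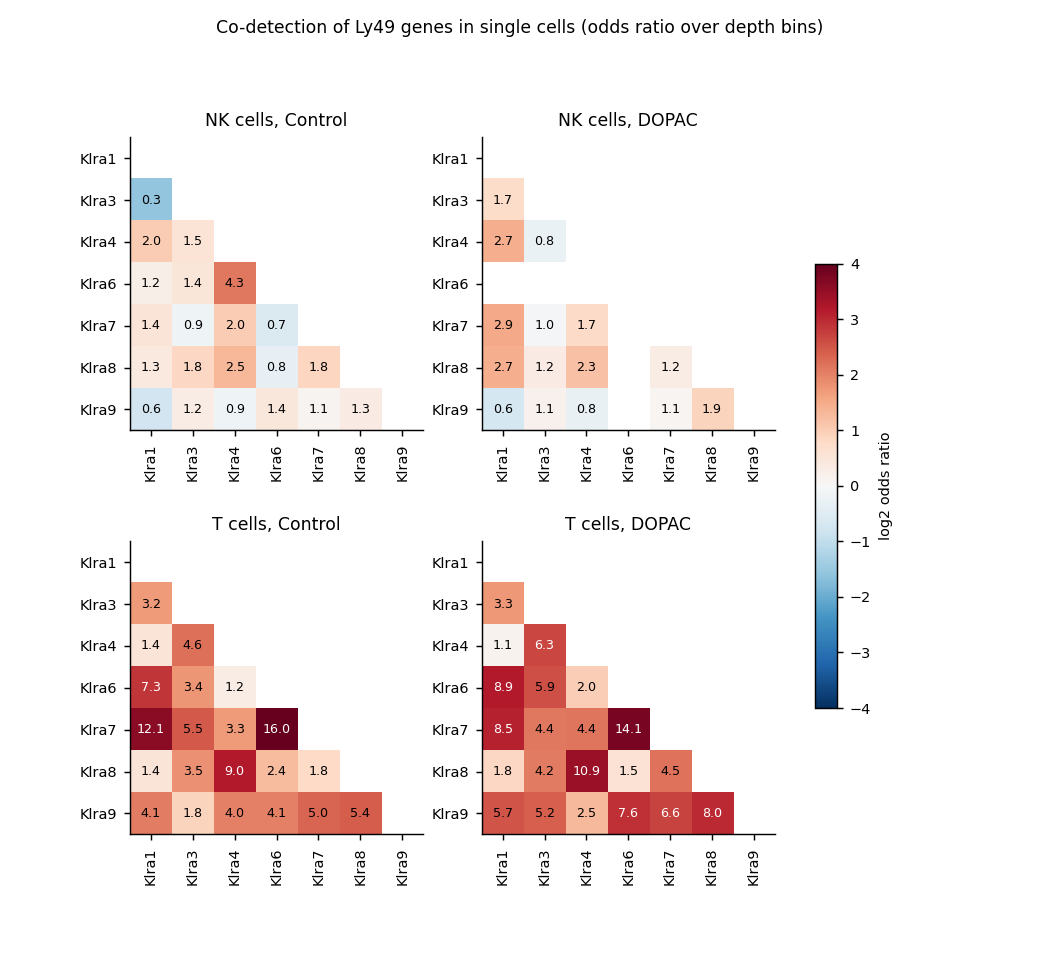
Odds ratio of detecting 2 Ly49 genes in the same cell, taken within 4 depth bins, for each pair in NK cells and in T cells of the Control and DOPAC libraries. The colour gives the log2 odds ratio and the printed number the odds ratio, and blank fields could not be described. Klra4 with Klra8 reaches 2.5 and 2.3 in NK cells, and Klra6 with Klra7 reaches 16.0 and 14.1 in T cells.

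Co-detection in T cells was stronger. Klra2 left aside, all 21 pairs of the other 7 members had odds ratios above 1 in both libraries, 15 of them above 2, with medians of 4.02 in Control and 5.24 in DOPAC. Klra6 and Klra7 reached 16.0 and 14.1, and Klra7 was found in 67.2% of Control T cells with Klra6 and in 11.3% of those without it. Klra1 and Klra7 had 12.1 and 8.50, Klra1 and Klra6 had 7.28 and 8.94, and Klra4 and Klra8 had 8.98 and 10.9. T cells were a mixture of classes with very different Ly49 levels, so the ratios were also taken within a class. Within CD8 T cells 20 of 21 pairs were above 1 in both libraries, with Klra1 and Klra7 at 22.4 and 10.9 and Klra6 and Klra7 at 15.9 and 12.5. These ratios rest on few cells. Klra1 and Klra7 were found together in 14 Control and 4 DOPAC cells, and Klra6 and Klra7 in 17 and 8. Klra1 and Klra4 shared 1 cell in each library, and the remaining pair, Klra6 and Klra8, shared 0 cells in DOPAC. Within the T cells outside the named T gates 16 of 21 were above 1 in both and 2 below, with Klra6 and Klra7 at 8.50 and 5.74.

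CD8 T cells held little Ly49 RNA, and less in the DOPAC library than in Control. The 8 genes summed to 77.5 CPM in 600 Control cells (70.2 to 85.4) and to 45.0 in 3163 DOPAC cells (42.0 to 48.2), a log2 ratio of -0.79 (-0.96 to -0.61). A member UMI was seen in 20.2% and 14.1% of cells, and in 4.51% and 3.82% at 1000 UMIs, against 1.44% for the Control B cells. With doublets kept the log2 ratio was -0.56 (-0.70 to -0.41), and at 1000 UMIs per cell -0.52 with an interval from -0.999 to 0.03.

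The lower sum came from 3 inhibitory genes. Klra1 gave 12.3 CPM in Control CD8 T cells (9.51 to 15.7) and 1.52 in DOPAC (1.01 to 2.20), a log2 ratio of -2.99 (-3.71 to -2.36). This ratio was -1.85 (-2.69 to -1.01) without the CD8 T cells that had an NK marker UMI and -2.35 (-2.91 to -1.82) with doublets kept. Klra6 gave 12.1 (9.34 to 15.5) and 2.07 (1.46 to 2.84), a log2 ratio of -2.54. Klra7 gave 25.2 (21.1 to 29.9) and 8.22 (6.96 to 9.64), a log2 ratio of -1.62. For each of these genes the Control value was the higher and the intervals were separate. The activating genes had 7.02 and 8.65 CPM for Klra4 and 8.15 and 9.58 for Klra8, with overlapping intervals, and Klra3 gave 7.20 and 6.31, Klra9 2.09 and 3.48 and Klra2 3.41 and 5.17. Activating genes thus gave 19.6% of member UMIs in Control CD8 T cells and 40.5% in DOPAC. For comparison, monocytes gave 4.91 and 4.16 CPM of Klra4, 5.01 and 5.94 of Klra8 and 2.46 and 7.13 of Klra3. Control B cells gave 2.325 of Klra4 and 1.55 of Klra8. The part of free RNA in the low CD8 T values was not tested.

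By the 1.5-fold count 1 of 8 members was higher and 3 lower in DOPAC CD8 T cells, against 17.4% higher and 23.2% lower of all genes. The member counted as higher was Klra9, with a log2 ratio of 0.64 whose interval spans 0 (-0.19 to 1.81). It was 0.19 (-0.81 to 1.63) without the cells that had an NK marker UMI and -0.13 (-0.73 to 0.58) with excluding markers allowed at up to 1 UMI. Median log2 ratios were 0.00 for the members and -0.06 for all genes. Tcf7, which encodes TCF-1, a transcription factor needed for Ly49A expression in NK cells, was at 229 CPM in Control and 14.3 in DOPAC CD8 T cells. Its part in the lower Klra1, Klra6 and Klra7 values was not tested.

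CD8 T cells with RNA of Ikzf2, which encodes Helios, a transcription factor of regulatory T cells including Ly49-positive CD8 cells, had the higher Ly49 sum, though not for every member. The 231 Control cells with Ikzf2 RNA had 105 CPM of the 8 genes and the 369 without had 54.9, and in DOPAC 1890 cells with it had 52.1 and 1273 without had 30.7. The cells with Ikzf2 RNA were deeper, with medians of 8338 against 7139 UMIs in Control and 5509 against 3999 in DOPAC. Klra7 was higher with Ikzf2 RNA in both libraries, 45.8 against 8.29 CPM in Control and 10.3 against 4.09 in DOPAC. Klra1 was at 23.95 against 2.76 in Control and at 1.55 against 1.47 in DOPAC. Klra6 was at 16.4 against 8.64 and at 2.69 against 0.817. Klra3 and Klra9 were higher with Ikzf2 RNA in DOPAC, with log2 ratios of 1.47 (0.79 to 2.38) and 1.86 (0.89 to 3.40), while in Control their ratios of -0.77 and 0.51 had intervals that span 0. The activating genes Klra4 and Klra8 were lower with Ikzf2 RNA in Control, with log2 ratios of -1.07 (-2.36 to -0.06) and -1.02 (-2.18 to -0.08). In DOPAC their ratios of 0.07 and 0.35 had intervals that span 0.

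The Ly49 level was higher in the few CD8 T cells with a UMI of the NK markers Ncr1 or Klrb1c, although most member UMIs lay in the other CD8 T cells (271 against 138 in Control, 632 against 195 in DOPAC). In Control 32 such cells had 394 CPM of the 8 genes and the other 568 had 55.0. In DOPAC 82 such cells had 329 and the other 3081 had 35.5. The leading members differed between the libraries. Control cells with an NK marker held mainly Klra7 (134 CPM), Klra1 (111) and Klra6 (65.7). Their Klra8 (31.4), Klra4 (25.7), Klra3 (14.3) and Klra9 (8.57) rested on 11, 9, 5 and 3 UMIs. DOPAC cells with an NK marker held Klra8 (86.0), Klra4 (77.5), Klra7 (55.6), Klra3 (47.2) and Klra9 (47.2). Klra1 was at 3.37 and Klra6 at 6.74 in these DOPAC cells, from 2 and 4 UMIs. Whether some barcodes held a T cell together with an NK cell was not tested beyond the doublet removal. Without the cells that had an NK marker, the sum was still lower in DOPAC CD8 T cells (35.5 against 55.0).

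Ly49 RNA was also frequent in T cells outside the CD8, CD4, Foxp3 and gamma delta gates, of which there were 510 in Control and 903 in DOPAC. Their sums were 395 CPM (376 to 415) and 267 (249 to 286), and 52.4% and 33.1% of them had a member UMI, 25.7% and 20.8% at 1000 UMIs. These cells also had Ikzf2 at 1677 and 1236 and Klrb1c at 59.8 and 26.0 CPM. Cd8a was at 16.2 and 31.4. In Control they carried Hbb-bs at 588 CPM and in DOPAC the melanoma gene Pmel at 32.3 (4.11 in Control), whose part in the values was not tested.

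Inhibitory genes led in these T cells. Klra7 gave 139 CPM in Control (127 to 151) and 69.6 in DOPAC (60.7 to 79.4), Klra1 gave 78.3 and 34.2, and Klra6 gave 44.9 and 20.1. Their log2 ratios of DOPAC over Control were -0.99, -1.19 and -1.15. The activating genes were at 36.2 and 41.1 for Klra4 and at 40.8 and 47.7 for Klra8, with overlapping intervals. Klra1, Klra6 and Klra7 were also the members that were lower in DOPAC CD8 T cells. By the 1.5-fold count 1 of 8 members was higher, Klra2 (3.34 and 12.5), and 3 were lower, against 13.8% higher and 17% lower of all genes. Cells with inhibitory members only were 42.2% of Control and 21.9% of DOPAC cells, and cells with activating members only 2.35% and 5.98%. These shares were not thinned, and the cells had medians of 6158 UMIs in Control and 2707 in DOPAC.

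Gamma delta T cells, 96 in Control and 23 in DOPAC, had overlapping sums of 293 (252 to 340) and 267 CPM (167 to 404). Klra7 was their leading member, at 108 and 182 CPM with overlapping intervals. Control CD4 T cells (18.8) and Control Foxp3-positive T cells (22.0) were near the 15.1 CPM of Control B cells. In DOPAC these classes gave 9.70 and 38.7 CPM, from 3 and 9 UMIs, and the 20 DOPAC B cells held 0 member UMIs.

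Among the gated classes Klra2 was highest in macrophages and monocytes. These gates held 28.2% and 35.1% of its UMIs in Control, and 12.9% and 20.7% in DOPAC. Cells outside the gated classes held 34.9% in Control and 57.25% in DOPAC. Klra2 gave 66.1 CPM in 986 Control macrophages (62.3 to 70.2) and 188 in 185 DOPAC macrophages (163 to 217), a log2 ratio of 1.52 (1.29 to 1.73). In monocytes it gave 140 (133 to 147) and 188 (168 to 210), a log2 ratio of 0.43 (0.25 to 0.61). The DOPAC library was higher in both classes. At 1000 UMIs per cell 6.90% of Control and 18.5% of DOPAC macrophages had a Klra2 UMI, and 12.6% and 16.5% of monocytes. Unthinned, the shares were 47.8% and 55.1% of macrophages and 62.1% and 47.2% of monocytes.

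Beside Klra2, the monocyte gene Ly6c2 was at 192 CPM in Control and 677 in DOPAC macrophages and the C1q gene C1qa at 1383 and 1069, and their part in the Klra2 difference was not tested. By the 1.5-fold count 3 of 5 members were higher and 0 lower in DOPAC macrophages, against 18.4% higher and 18.1% lower of all genes, with medians of 1.25 for the members and 0.01 for all genes. Apart from Klra2 (198 and 1098 UMIs), the members counted in macrophages rest on 2 to 13 DOPAC UMIs each. Klra3 was the next, at 2.89 and 12.4 CPM.

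The upstream regions of 4 members are shown because these genes stood apart in the cells that held them: Klra2 in myeloid cells, Klra4 in NK cells, and Klra6 and Klra7 together in T cells. The windows, from RefSeq on GRCm38.p6, span the annotated transcription start, and all 8 members were matched, Klra7 and Klra8 with 2 starts each. Capitals mark the letters GAGGAA, a core bound by ETS factors, and a core bound by TCF-1 that was searched in 4 forms. The forms were a first written CTTTGAA, another written CTTTGAT, the third written CTTTGTA and a last form written CTTTGTT. Both strands were searched, so that TTCCTC is the ETS core on the opposite strand.
Klra2, chr6:131247313-131247612, minus strand: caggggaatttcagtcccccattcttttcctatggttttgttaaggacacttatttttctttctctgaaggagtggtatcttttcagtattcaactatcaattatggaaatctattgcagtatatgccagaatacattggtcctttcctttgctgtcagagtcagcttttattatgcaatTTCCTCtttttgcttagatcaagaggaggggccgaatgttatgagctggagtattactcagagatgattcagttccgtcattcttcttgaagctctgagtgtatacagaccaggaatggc
Klra4, chr6:130067222-130067521, minus strand: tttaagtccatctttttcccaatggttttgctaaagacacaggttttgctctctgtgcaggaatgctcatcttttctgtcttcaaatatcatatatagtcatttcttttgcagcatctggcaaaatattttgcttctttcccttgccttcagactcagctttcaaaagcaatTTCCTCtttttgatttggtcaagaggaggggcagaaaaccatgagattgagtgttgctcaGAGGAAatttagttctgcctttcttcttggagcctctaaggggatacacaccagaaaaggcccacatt
Klra6, chr6:130026905-130027204, minus strand: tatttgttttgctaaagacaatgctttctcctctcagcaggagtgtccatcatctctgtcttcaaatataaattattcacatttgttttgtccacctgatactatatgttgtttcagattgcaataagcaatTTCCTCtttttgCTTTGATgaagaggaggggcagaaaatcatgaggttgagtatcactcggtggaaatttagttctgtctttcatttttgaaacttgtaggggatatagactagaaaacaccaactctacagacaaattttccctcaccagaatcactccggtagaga
Klra7, chr6:130233273-130233572, minus strand: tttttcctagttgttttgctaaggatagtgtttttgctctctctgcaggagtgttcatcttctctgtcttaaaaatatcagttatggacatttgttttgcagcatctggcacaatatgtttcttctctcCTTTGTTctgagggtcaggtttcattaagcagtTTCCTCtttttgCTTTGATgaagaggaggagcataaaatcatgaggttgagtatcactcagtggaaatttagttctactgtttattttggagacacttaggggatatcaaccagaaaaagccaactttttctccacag
The ETS core was found in 8 of 10 member windows (7 of 8 members, all but Klra1) and in 28.3% of all 32851 windows. The TCF-1 core was found in 4 of 10 member windows (3 of 8 members, Klra6, Klra7 and Klra9) and in 16.9% of all windows. TGTGGT, a core bound by RUNX factors, was found in Klra1 and in 16.8% of all windows. The motifs do not overlap, and a match describes letters, not binding. Klra2's window was 74.0% identical to that of Klra4 and 73.7% to that of Klra8, while Klra6 and Klra7 shared 75.0% and Klra4 and Klra8 86.3%. Klra3 and Klra9 shared 90.3%. Member windows thus resemble one another and are not separate draws to set against all windows.

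The comparison of DOPAC with Control NK cells gave a slightly lower sum in DOPAC, a log2 ratio of -0.24 (-0.33 to -0.15). It was -0.12 (-0.25 to 0.01) with at least 3 NK marker UMIs, -0.15 (-0.22 to -0.09) with at least 1 and -0.13 (-0.22 to -0.04) when scaled without ribosomal protein and mitochondrial genes. Among NK cells with Itga2 RNA it was -0.03 (-0.18 to 0.11), and among those without -0.22 (-0.34 to -0.10). Cells with Itga2 RNA were 293 of 525 in Control and 65 of 220 in DOPAC. The part of this shift in the lower sum was not tested. Klra8 had a ratio of -0.53 (-0.71 to -0.36), Klra4 -0.36 (-0.53 to -0.21) and Klra1 -0.54 (-1.22 to 0.00). With at least 3 NK marker UMIs these ratios were -0.28 (-0.55 to -0.04), -0.18 (-0.42 to 0.04) and -1.45 (-3.13 to -0.50). In NK cells with Itga2 RNA the ratios of Klra8 and Klra4 were -0.22 (-0.52 to 0.04) and -0.20 (-0.48 to 0.05). In NK cells without it they were -0.55 (-0.79 to -0.33) and -0.21 (-0.43 to 0.00). Klra7 was higher in DOPAC at 0.25 (0.04 to 0.45), and at 1000 UMIs per cell its ratio was 0.29 (-0.15 to 0.70). Klra3 (0.10) and Klra9 (-0.03) had intervals that span 0. By the 1.5-fold count 0 of 7 members were higher and 0 lower, against 14.8% higher and 18.3% lower of all genes, and the medians were -0.36 for the members and -0.03 for all genes.

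Of 13 adaptor and proximal signaling genes 9 were lower and 0 higher in DOPAC NK cells, against 18.3% lower and 14.8% higher of all genes, with a median log2 ratio of -0.69. Tyrobp, the DAP12 adaptor of Ly49D and Ly49H, was at 1671 CPM in Control (5615 UMIs) and 1007 in DOPAC (830 UMIs), a log2 ratio of -0.73 (-0.84 to -0.63). Ptpn6, the phosphatase SHP-1 recruited by inhibitory members, was at 39.3 and 14.6, and Inpp5d, the phosphatase SHIP-1, at 655 and 340. Hcst, which encodes the adaptor DAP10, was at 325 and 364.

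The next gene lists are read against the same 14.8% higher and 18.3% lower of all genes. Of the class I genes, 1 of 3 was lower in DOPAC NK cells: H2-D1 was at 1618 and 869 CPM, H2-K1 at 1889 and 1346, and B2m, the light chain, at 2290 and 2869. Of 14 transcription factors of NK development 1 was higher (Id2, 478 and 814) and 4 lower, among them Tcf7 (110 and 61.9) and Runx1 (2617 and 1492). Other receptors of the NK complex were lower in 2 of 12 cases and higher in 0, with Klrc1 at 162 and 157. Maturation genes were higher in 2 of 12 (Klrg1, 18.2 and 58.3, and Ly6c2, 43.8 and 171) and lower in 2. Tissue-resident genes were higher in 2 of 9, Gzmc (52.4 and 435) and Itga1 (10.4 and 35.2), and lower in 1.

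NK cells without any Ly49 UMI differed from the rest in genes outside the family. There were 65 in Control and 33 in DOPAC, as deep as the Ly49-positive cells (medians of 6045 against 5870 UMIs and 3170 against 2944). Of 2723 genes with at least 50 UMIs in each library, 1.03% were at least 1.5-fold higher and 1.32% at least 1.5-fold lower in Ly49-positive cells in both libraries. Genes are named from the 10 on each side with the largest difference in the same direction in both libraries.

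Higher in Ly49-positive cells were Itga2 (283 against 144 CPM in Control, 155 against 36.0 in DOPAC), Itgam, the CD11b chain of mature NK cells (62.8 against 32.7, 83.2 against 28.8), and Cd247, the CD3 zeta chain (272 against 137, 191 against 72.0). The survival gene Bcl2 (857 against 470, 473 against 238), Rreb1, Pbx3, Spp1, Gab2, Snx29 and Mef2c completed this side. Among genes of the lists, Gzma, which encodes granzyme A, had log2 ratios of 0.59 and 0.83, and Tyrobp 0.26 (0.14 to 0.38) and 0.32 (0.05 to 0.63). Eomes, a transcription factor of NK cells, had 1.03 (0.67 to 1.45) in Control and 0.52 (-0.13 to 1.38) in DOPAC. Maturation genes did not all go one way. Klrg1, a receptor of mature NK cells, had -0.07 (-1.01 to 1.35) in Control and 0.57 (-0.53 to 2.50) in DOPAC. Ly6c2 had 0.40 (-0.30 to 1.36) and -0.99 (-1.51 to -0.40). S1pr5 had -0.66 and Cx3cr1 -0.57 in Control, from few UMIs and with intervals that span 0.

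Lower in Ly49-positive cells were Rora, a transcription factor of innate lymphoid cells (197 against 810 CPM in Control, 110 against 375 in DOPAC), and Klrc1, which encodes the inhibitory receptor NKG2A (134 against 340, 128 against 295). St6galnac3 (97.9 against 420, 64.2 against 317), Camk4 (102 against 294, 254 against 605), Rad51b, Bcl2a1d, Dscam, Hist1h2ap and Pola1 were also on this side. Among the lists, Ikzf2 was also lower (285 against 549, 364 against 915), as were Kit, a receptor of immature NK and innate lymphoid cells, and Inpp4b, with log2 ratios of -1.20 and -1.30 and of -2.58 and -1.30. At these depths a cell without a Ly49 UMI may still hold Ly49 RNA that was not captured.

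**Figure D5:**
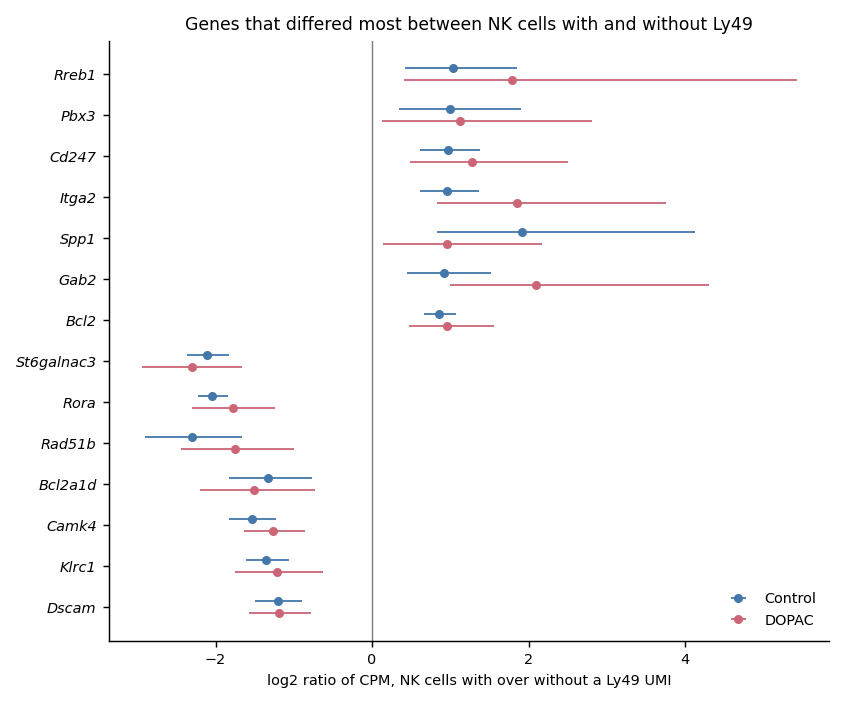
Log2 ratio of CPM (x axis) in NK cells with over without a Ly49 UMI, for the 7 genes highest and the 7 lowest in both libraries. Points are Control and DOPAC sums and bars are exact 95% intervals for counting error. All bars of the 7 highest genes lie above 0, and those of the 7 lowest, Rora and Klrc1 among them, lie below 0 in both libraries. The genes were chosen by these same ratios, which favours bars clear of 0.

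Across 26 class profiles, each a gated class in 1 library, the members differed in their pattern. These correlations are descriptions, since classes share a library and its depth. Klra4 and Klra8 had a Pearson r of 0.92 and Klra1 and Klra7 of 0.91, while Klra4 and Klra6 had 0.42 and Klra2 was negative with every other member (-0.39 to -0.07). Among 12230 other genes, the profile most like Klra4 was Nrarp (0.94), followed by Ncr1 (0.94) and Plscr4 (0.93), and the one most like Klra8 was Car2 (0.97), followed by Ncr1 (0.92) and Nrarp (0.91). Klra9 was most like Ret (0.95), Sema6a (0.94) and Klrb1c (0.94), and Klra3 most like Ncr1 (0.88), Klri2 (0.88) and Nrarp (0.88). Klra7 was most like Samd3 (0.92), Spry2 (0.92) and Klrb1c (0.91), Klra1 most like Samd3 (0.91), Qrfp (0.88) and Tgfa (0.87), and Klra6 most like Syde2 (0.85), Ifngas1 (0.85) and Cd160 (0.82). Ncr1 and Klrb1c define the NK gate, so their likeness to members high in NK cells follows from how the classes were formed. Klra2 was most like Zfyve9 (0.93), Hgf (0.92) and Dock1 (0.92). The summed profile was most like Cemip2 (0.89), Irak2 (0.89), Spry2 (0.89), F630040K05Rik (0.85) and Ret (0.84).

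Not all Ly49 RNA lay in gated cells. NK cells held 31.5% of member UMIs in Control and 11.7% in DOPAC, and cells outside every gated class held 41.2% and 66.2%. The latter include 139 Control and 9 DOPAC barcodes that met 2 gates. A member other than Klra2 was seen in 871 Control and 1413 DOPAC cells outside the gated classes. Of these, 281 and 642 had neither a Cd3 nor an NK marker UMI, with medians of 8984 and 2418 UMIs per cell. The marker gates thus described a smaller part of the Ly49-positive cells in DOPAC than in Control.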

How the data were processed

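Droplet-based single-cell RNA sequencing was done on CD45-positive tumor leukocytes of 1 Control and 1 DOPAC library. The authors deposited unnormalized UMI counts for each gene in each barcode. Per the file headers they used Cell Ranger 7.0.1, and the genome build was GRCm38 per the submitters' processing notes. A protocol label mentions colon and beads, but the tissue label and design (tumors, 10x Chromium) were followed. The Control library held 9629 barcodes and 100938364 UMIs, the DOPAC library 10777 and 47769958.

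Cells were kept with at least 500 UMIs, 200 genes and at most 10% mitochondrial UMIs. Doublets were scored with Scrublet in scanpy 1.11.5 at 0.8% per 1000 barcodes. The caller marked 339 Control cells (4.02%), which were removed, and 0 DOPAC cells, where the top-scoring 815 cells (8.07%) were left out instead. Cells were gated by marker UMIs, and a barcode that met 2 gates was left out. Genes were summed per class and given as CPM, the counts per 1000000 UMIs of the class, with exact Poisson intervals, shares with exact Clopper-Pearson intervals. Log2 ratios had 1 count added to each sum and exact conditional intervals. These intervals of sums and ratios treat each UMI as independent, although the UMIs of a gene were clustered in cells. In Control NK cells, for example, 1967 Klra4 UMIs lay in 47.0% of 525 cells. The intervals are therefore likely too narrow. Intervals of odds ratios were approximate and taken around the ratio without depth bins. A count of 0 was given a floor of 3 counts. The ratio intervals were tested on simulated Poisson counts, the form the intervals assume. Clustering of UMIs in cells was left out, so the simulation could not check the coverage of the intervals in these data.

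The genes named besides the members were those of fixed lists, the 5 with the highest Pearson r to the summed profile and 3 to each member's, and the 10 highest and 10 lowest between Ly49-positive and Ly49-negative NK cells by the weaker of the libraries. 1 gene of the last group is not reported here. The members and lists were chosen with earlier results of these data known, and the promoter motifs after the promoters had been seen. Alternatives changed gates, depth, scaling, doublets and counts added.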

Additional observations from a re-analysis of the deposited data

Results flagged for a closer look

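Klra7 stood in opposite directions between the libraries in different cell classes. In NK cells its log2 ratio of DOPAC over Control was 0.25 (0.04 to 0.45), from 268 and 318 CPM in Control and DOPAC. The NK ratio was 0.34 (0.04 to 0.62) with at least 3 NK marker UMIs. With excluding markers allowed at up to 1 UMI it was 0.16 (-0.03 to 0.33), and at 1000 UMIs per cell 0.29 (-0.15 to 0.70). In CD8 T cells the ratio was -1.62, from 25.2 and 8.22 CPM, and -1.09 (-2.025 to 0.07) at 1000 UMIs per cell. In the T cells outside the named T gates it was -0.99, from 139 and 69.6. The difference between the classes was not tested, since each group is 1 library. In the tail of the Klra7 transcript 10.2% of windows are shared with a Ly49 pseudogene.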

How the results depend on the processing

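No paired analysis was possible because each group is 1 library. For the 9 main values 71 alternatives were run, of which 52 stayed within the 95% counting interval, 18 moved outside it and 1 reversed; for 28 single-member ratios 205 of 226 stayed within and 0 reversed. A value was called reversed where its sign turned and its main interval excluded no difference; by this the Control ratios of Klra9 and Klra7 between NK cells with and without Itga2 RNA, at 0.47 and 0.52 with 1 NK marker UMI, moved from values whose intervals span 0. The reversed value was the Klra4 and Klra8 odds ratio in DOPAC NK cells, 2.25 with all UMIs and 0.95 at 1000 UMIs per cell. The interval of the latter, taken without depth bins, was 0.49 to 1.98. The share of NK cells with a Ly49 UMI was 69.0% in Control and 64.7% in DOPAC at 1000 UMIs, 80.9% and 75.3% at 2000 UMIs, 83.4% and 74.6% when 2 Ly49 UMIs were required and, in an alternative chosen after seeing the data, 84.4% and 79.1% with 1 NK marker UMI. It was 90.7% in DOPAC with 3 NK marker UMIs. The log2 ratio between NK cells with and without Itga2 RNA was 0.41 in Control at 1000 UMIs and 0.73 with 1 NK marker UMI, and 0.67 in DOPAC when 2 Itga2 UMIs were required. The NK ratio of DOPAC over Control was -0.12 with 3 NK marker UMIs, -0.15 with 1, -0.34 with excluding markers at up to 1 UMI and -0.13 without ribosomal protein and mitochondrial genes. The CD8 T ratio was -0.56 with doublets kept and -0.52 at 1000 UMIs, where its interval reached 0.03. The cause of these changes was not tested. The DOPAC library had fewer UMIs per cell, so that absence of a gene in a DOPAC cell is the least certain.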

Other observations

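Klra17, a Ly49 gene outside the 8 members, was a gene of plasmacytoid dendritic cells, at 163 CPM in Control (150 to 177) and 383 in DOPAC (281 to 511, from 46 UMIs). In conventional dendritic cells Klra17 was at 8.41 CPM in Control and at 0 in DOPAC. Klra5 was found in NK cells at 11.01 and 13.4 CPM and in the T cells outside the named T gates at 13.9 and 9.72. Klra10 gave 4.47 and 6.07 CPM in NK cells, from 15 and 5 UMIs.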
